A study of Mus musculus with 4 samples.

Results

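The genes described here are the hnRNP proteins, the SR proteins and further regulators of pre-mRNA splicing, in primary cardiac fibroblasts of the mouse with and without TGFbeta. They were chosen by symbol only: Hnrnp genes (Hnrnpd was left out), Srsf, Sf3a and Sf3b, Ptbp, Mbnl, Rbfox, Tra2, U2af, Khdrbs, Qk, Nova, Esrp and Msi. The rule found 62 of the 33641 gene symbols in the tables, and it used no measured value. Of these, 58 had a mean level of at least 1 TPM over all libraries and were tested. TPM is a transcript abundance corrected for transcript length and scaled to a fixed total in each library.

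The cells were wild-type C57BL/6J fibroblasts from mice aged 12 weeks, given either a vehicle control or TGFbeta, a growth factor that activates fibroblasts, at 10 ng/ml. Each group has 2 libraries. Both groups also received 4-thiouridine, a crosslinkable uridine analogue, first 20 h and again 4 h before irradiation at 368 nm and 200000 uJ per square centimetre. The series text describes RNA recovered with HuR, the RNA-binding protein encoded by Elavl1, whereas the sample labels describe Trizol total RNA used for TruSeq libraries, and the labels do not settle which was sequenced. No input library was analysed here. Less transcript per cell, fewer cells of a type and less recovery with HuR cannot be told apart in any level given below. The labels do not say whether replicates came from separate animals or cultures, so each p-value measures only the spread between these samples.

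Splicing regulators decide which exons of a pre-mRNA are joined. SR proteins bind exonic sequences and mostly favour inclusion of the exon, hnRNP proteins often oppose them, and the SF3 and U2AF proteins belong to the machinery that recognises the branch point and the 3' splice site. Families such as the Muscleblind, Rbfox, Quaking and Esrp proteins act in particular tissues, and many splicing regulators limit their own level by splicing that sends the transcript to nonsense-mediated decay.

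Most of these transcripts differed little between vehicle and TGFbeta. Of the 58 tested genes, 1 was higher with TGFbeta (Esrp2), 1 was lower (Srsf5) and 56 did not pass, by limma on log2(TPM + 1) at a Benjamini-Hochberg adjusted p under 0.05. Among all 15815 tested genes 5.92% were called, 1.54% higher and 4.38% lower, and the members' share was 3.45%. An unadjusted p under 0.05 was found for 7 members (12.1%: Esrp2, Srsf5, Hnrnpa1, Qk, Khdrbs3, Hnrnpab and Rbfox1), beside 24.5% of all tested genes. The absolute log2 change was under 0.5 in 53 members (91.4%), beside 76.9% of all genes. The median log2 change (TGFbeta minus vehicle, on the TPM + 1 scale) was 0.0045 for the members and -0.13 for all tested genes.

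Both TGFbeta libraries lay on the same side of both vehicle libraries in 18 of the 58 members (31.0%), which was the case for 55.3% of all tested genes. The TGFbeta libraries were above in 8 members (Esrp2, Hnrnpa1, Hnrnpab, Khdrbs3, Qk, Rbfox1, Sf3b4 and Srsf9), and 15.5% of all genes lay that way. They were below in 10 (Hnrnph1, Hnrnph3, Hnrnpl, Hnrnpul1, Khdrbs2, Msi1, Msi2, Sf3b2, Srsf4 and Srsf5), beside 39.8% of all genes. This split depends on how the libraries are scaled. It was 24 above and 2 below after each library was set to the same median. After quantile normalization it was 18 above and 4 below. The shares of all tested genes after these scalings are not given here, so these counts have no background beside them. Median scaling moved the median log2 change of all genes to 0.03 and that of the members to 0.16.

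**Figure D1:**
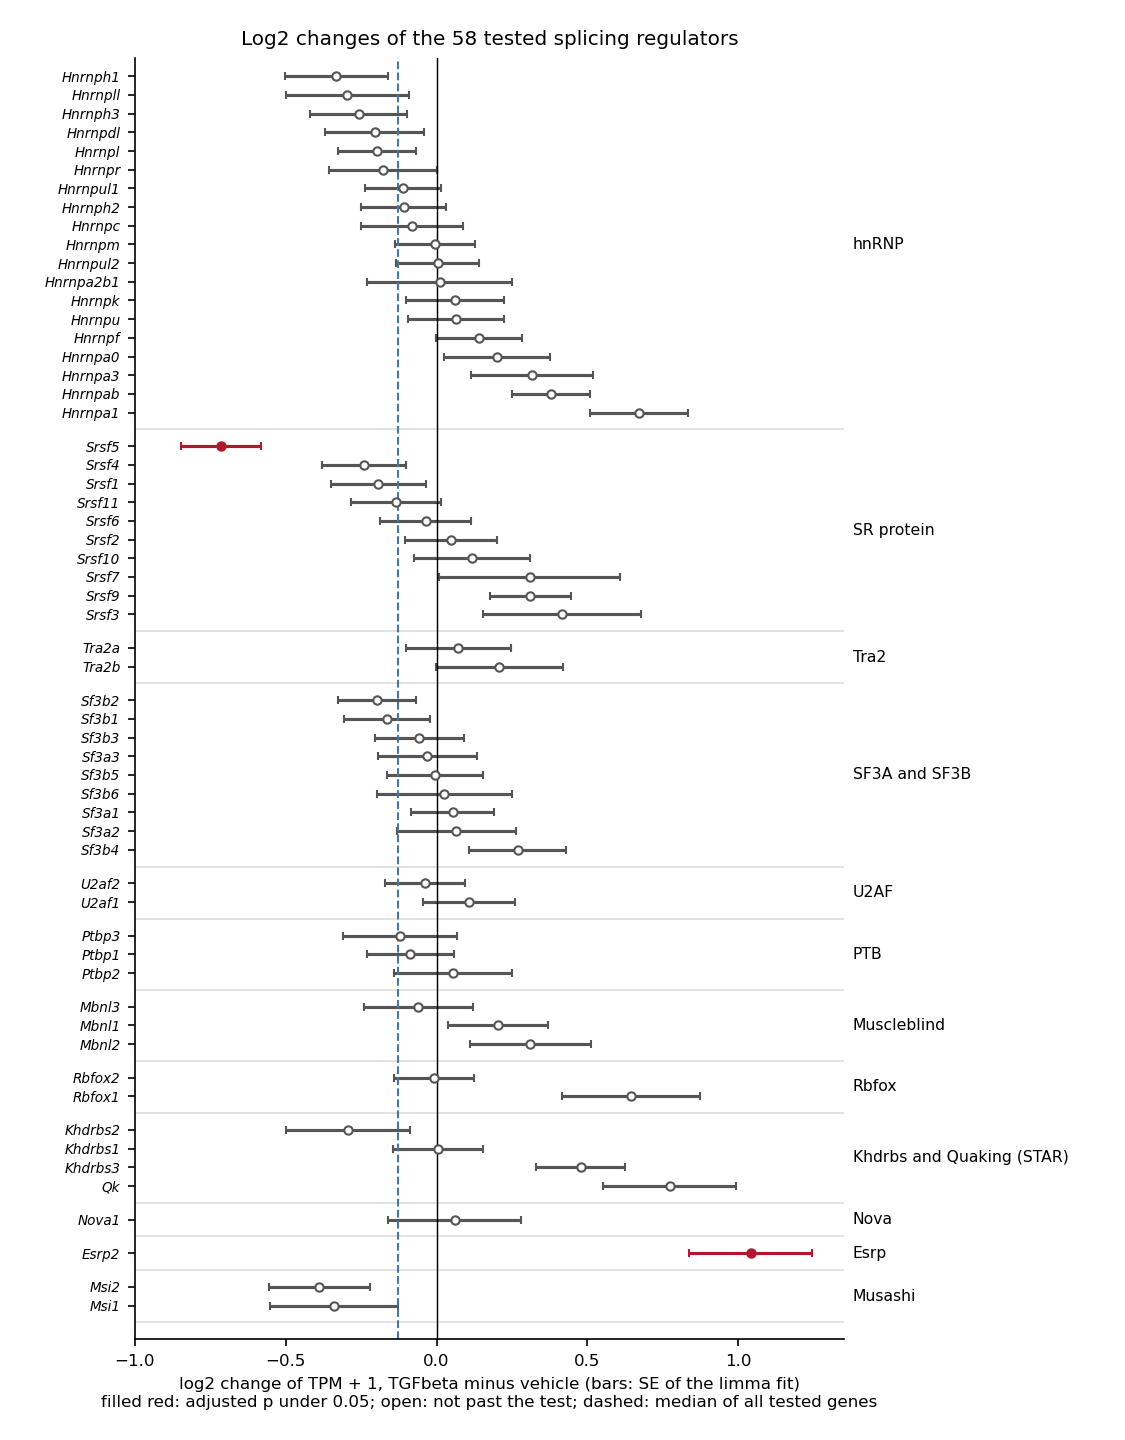
Log2 change (TGFbeta minus vehicle, log2 of TPM + 1) on the horizontal axis for each of the 58 tested genes, grouped by family, with bars of 1 standard error of the limma fit. Srsf5 at -0.71 and Esrp2 at 1.04 are the filled points that passed the test, most other points lie within 0.5 of 0, and the dashed line is the median of all tested genes, -0.13.

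SR proteins carry the arginine- and serine-rich tail that gives the family its name, and act in splicing, RNA export and translation. Srsf5 (ENSMUSG00000021134.17, chr12:80945504-80950507, plus strand of GRCm38) was the most abundant SR gene in all 4 libraries. It stood at 391 and 393 TPM under vehicle and fell to 227 and 251 TPM under TGFbeta. The groups did not overlap, and the vehicle libraries were almost equal. The means were 392 ± 1.18 TPM (SD, n = 2) with vehicle and 239 ± 17.0 TPM (SD, n = 2) with TGFbeta, so that vehicle was 1.64-fold above TGFbeta. The log2 change was -0.71 with a standard error of 0.13 (limma, adjusted p = 0.0387).

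Under vehicle Srsf5 made up 29.2% and 31.0% of all SR-protein TPM, and under TGFbeta 21.4% and 19.6%. The SR genes together summed to 1342 and 1269 TPM with vehicle and 1058 and 1283 TPM with TGFbeta, and these sums overlapped. Srsf5 was called in 7 of the 15 fits that were run, the reported fit included, with a log2 change between -0.79 and -0.56. The call was lost with any library left out: its adjusted p in limma became 0.182 on omitting vehicle 1, 0.238 for vehicle 2, 0.115 for TGFbeta 1 and 0.083 for TGFbeta 2. No gene of any kind was called without vehicle 1 or without vehicle 2.

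The 250 bases before the RefSeq start of Srsf5 and of Hnrnpa1 (GRCm38.p6) are shown because these are abundant members whose libraries separated in opposite directions. Capitals mark CAGAC or its reverse complement GTCTG, letters found in many elements bound by SMAD proteins, the transcription factors of the TGFbeta pathway.
Srsf5, chr12:80945249-80945498, plus strand: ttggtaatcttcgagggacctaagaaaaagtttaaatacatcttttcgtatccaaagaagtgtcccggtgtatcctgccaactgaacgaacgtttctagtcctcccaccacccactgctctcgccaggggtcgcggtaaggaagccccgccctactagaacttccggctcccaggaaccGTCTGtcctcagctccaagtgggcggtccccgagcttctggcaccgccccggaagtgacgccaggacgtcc
Hnrnpa1, chr15:103240147-103240396, plus strand: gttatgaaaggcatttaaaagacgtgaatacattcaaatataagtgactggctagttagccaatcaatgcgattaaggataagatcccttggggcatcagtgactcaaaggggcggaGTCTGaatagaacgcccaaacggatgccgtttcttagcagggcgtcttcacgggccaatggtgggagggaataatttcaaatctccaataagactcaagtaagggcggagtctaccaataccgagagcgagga

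Each of these windows holds the letters 1 time. The Srsf5 window is 56.8% G or C, and the Hnrnpa1 window is 46.0%. Among the members, 50 genes with 68 RefSeq starts were in the promoter table. Of their windows, 27.9% held CAGAC on either strand, beside 42.2% of all 32851 windows. Other letters that were scanned went the other way. GGCGCC occurred in 26.5% of the members' windows and in 9.59% of all windows. GTCTAGAC, which is rare, occurred in 1 member window (1.47%), beside 0.17% of all windows. CCAAT, the letters bound by the NF-Y factor, occurred on either strand in 50.0% of the members' windows and in 33.8% of all windows, with 4 matches in the Hnrnpa1 window. These scans were chosen after the values had been seen, and a match in letters is not a measured binding site.

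The other 9 tested SR genes did not pass the test, and their adjusted p-values in limma were 0.223 or higher. Srsf9, a small SR protein with a short tail, had 63.5 and 68.0 TPM with vehicle and 77.6 and 86.0 TPM with TGFbeta (log2 change 0.31, adjusted p = 0.223). Srsf4, a larger member of the family, had 55.5 and 63.5 TPM with vehicle and 50.4 and 49.8 TPM with TGFbeta (log2 change -0.24, adjusted p = 0.346). The libraries of both genes separated without overlap, in opposite directions. In GENCODE M21, 43.0% of the exonic bases of Srsf4 are shared with Gm12992 on the opposite strand, and the labels do not say that the libraries keep strand.

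Srsf3, a small SR protein and an adaptor for mRNA export, was at 105 and 78.8 TPM with vehicle and 95.5 and 155 TPM with TGFbeta. Srsf7, also an export adaptor, was at 32.0 and 20.3 TPM with vehicle and 24.9 and 40.7 TPM with TGFbeta. In both genes TGFbeta 2 was the highest library and vehicle 2 the lowest, and the groups overlapped. The log2 change of Srsf3 was 0.41 with a standard error of 0.26 (adjusted p = 0.390). Srsf1, the best-studied SR protein, had 129 and 133 TPM with vehicle and 101 and 129 TPM with TGFbeta (log2 change -0.19, adjusted p = 0.503). Srsf2, Srsf6, Srsf10 and Srsf11 overlapped between treatments, with log2 changes between -0.13 and 0.12. Srsf12 lay under the filter at 0.497 and 0.675 TPM with vehicle and 0.345 and 0.376 TPM with TGFbeta, and was not tested.

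The Tra2 proteins are SR-like activators that bind GA-rich exonic elements. Tra2b had 58.4 and 39.8 TPM with vehicle and 51.4 and 60.7 TPM with TGFbeta (log2 change 0.21, adjusted p = 0.601). Tra2a had 60.5 and 49.1 TPM with vehicle and 51.7 and 63.7 TPM with TGFbeta (log2 change 0.07, adjusted p = 0.844). In both genes vehicle 2 was the lowest library and TGFbeta 2 the highest, and the groups overlapped.

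**Figure D2:**
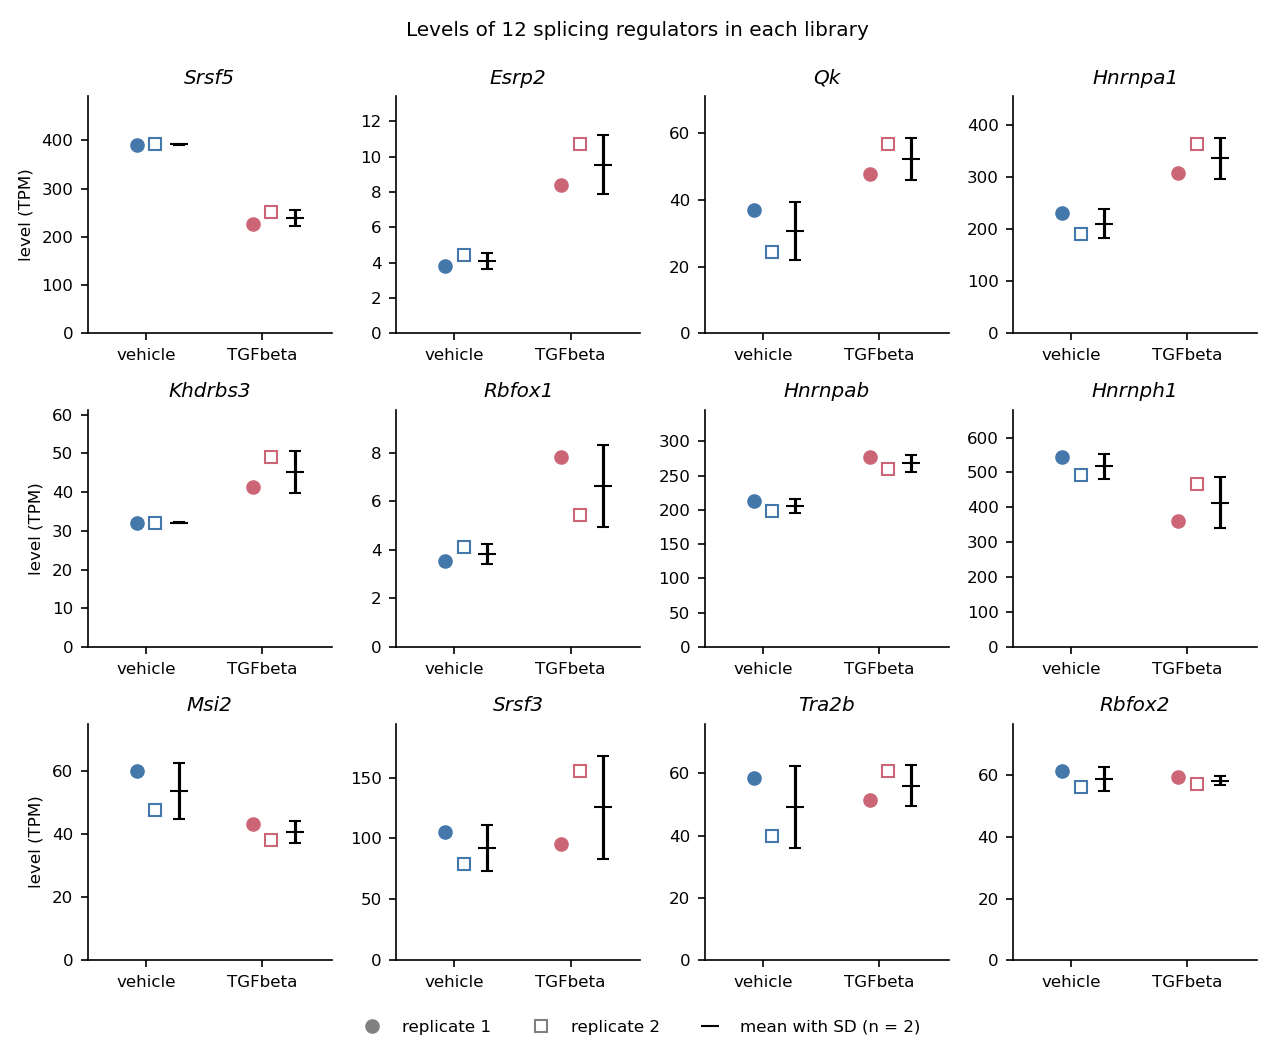
Level in TPM (vertical axes from 0) of 12 splicing regulators in each library; circles are replicate 1, squares replicate 2, and the bar beside them is the mean with its SD (n = 2). The vehicle and TGFbeta points of Srsf5, Esrp2, Qk and Hnrnpa1 do not overlap, while those of Srsf3, Tra2b and Rbfox2 do.

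Esrp1 and Esrp2 are the epithelial splicing regulators, known for splicing patterns of epithelial cells such as the epithelial form of Fgfr2. Esrp2 (ENSMUSG00000084128.10, chr8:106130319-106136974, minus strand of GRCm38) was at 3.79 and 4.41 TPM with vehicle and 8.37 and 10.7 TPM with TGFbeta. Both TGFbeta values were above both vehicle values, at a low level. The means were 4.10 ± 0.434 TPM (SD, n = 2) with vehicle and 9.54 ± 1.66 TPM (SD, n = 2) with TGFbeta, a ratio of 2.33. The log2 change on the TPM + 1 scale was 1.04 with a standard error of 0.20 (limma, adjusted p = 0.0435). Esrp1 was listed at 0 TPM in 3 libraries and at 0.108 TPM in TGFbeta 1.

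Of the epithelial and mesothelial markers, Epcam reached at most 0.110 TPM, Cdh1 at most 0.104 TPM and Krt18 at most 0.162 TPM, and Krt8 was listed at 0 in 3 libraries. The keratin Krt19 was at 2.35 and 2.33 TPM with vehicle and 1.47 and 2.31 TPM with TGFbeta. The mesothelial markers Upk3b and Wt1 were also above the filter, Upk3b at 9.19 and 12.1 TPM with vehicle and 7.32 and 6.77 TPM with TGFbeta, and Wt1 at 1.80 and 1.44 TPM with vehicle and 2.28 and 2.49 TPM with TGFbeta. The whole list of 10, of which these 3 were tested and none was called, summed to 14.1 and 16.5 TPM with vehicle and 11.8 and 12.3 TPM with TGFbeta. Esrp2 shares 5.05% of its exonic bases with Nfatc3 on the opposite strand. Nfatc3 was at 31.4 and 27.2 TPM with vehicle and 29.0 and 29.2 TPM with TGFbeta, so its libraries overlapped. Esrp2 was called in 9 of the 15 fits, with log2 changes from 0.67 to 1.21. Its adjusted p in limma became 0.190 on omitting vehicle 1, 0.204 for vehicle 2, 0.106 for TGFbeta 1 and 0.172 for TGFbeta 2.

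The hnRNP genes had the largest summed level of the families, with 3705 and 3182 TPM with vehicle and 3264 and 3766 TPM with TGFbeta. None of the 19 passed the limma test, and 2 (Hnrnpa1 and Hnrnpab) had an unadjusted p under 0.05. Their log2 changes ran from -0.33 to 0.67 with a median of -0.0042. Mean levels over all libraries spanned 34.7 TPM (Hnrnpll) to 466 TPM (Hnrnph1).

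Hnrnpa1, which binds splicing silencers and shuttles to the cytoplasm, had the largest difference of the family. It was at 231 and 190 TPM with vehicle and 308 and 363 TPM with TGFbeta. The groups did not overlap, and the ratio of means was 1.59. The log2 change was 0.67 with a standard error of 0.16 (limma, adjusted p = 0.0674). It was called when only genes of at least 5 TPM were tested (adjusted p = 0.0359), after median scaling (adjusted p = 0.0365) and when only protein-coding genes were tested (adjusted p = 0.0293). Its adjusted p over all fits ran from 0.0293 to 0.336. Hnrnpa1 has processed pseudogenes; the entry Hnrnpa1l2-ps was at 1.29 to 1.69 TPM, and how shared reads were divided is not given in the sources used here.

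The share of Hnrnpa1 in the hnRNP TPM was 6.22% and 5.98% with vehicle and 9.43% and 9.64% with TGFbeta. Hnrnpa2b1, an abundant relative, overlapped between treatments at 522 and 392 TPM with vehicle and 372 and 557 TPM with TGFbeta (log2 change 0.01, adjusted p = 0.986). Its replicates differed by more than its treatment means. Hnrnpa3 had 105 and 81.1 TPM with vehicle and 99.3 and 134 TPM with TGFbeta. Hnrnpa0 had 84.2 and 81.6 TPM with vehicle and 111 and 82.0 TPM with TGFbeta, where TGFbeta 1 stood above the other libraries.

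Hnrnpab, a member of the A/B group, was at 213 and 199 TPM with vehicle and 277 and 260 TPM with TGFbeta (log2 change 0.38, standard error 0.13, adjusted p = 0.145). Its libraries separated; 29.1% of its exonic bases overlap Phykpl on the opposite strand, which averaged 37.1 TPM with vehicle and 34.3 TPM with TGFbeta. Hnrnph1, which binds G-rich runs, had the highest mean of all members. It was at 543 and 492 TPM with vehicle and 361 and 466 TPM with TGFbeta (log2 change -0.33, adjusted p = 0.295). Its paralogue Hnrnph3 separated in the same direction, with 53.0 and 46.8 TPM with vehicle and 37.5 and 45.8 TPM with TGFbeta (adjusted p = 0.379). Hnrnph2 and Hnrnpf, of the same group, overlapped between treatments, with log2 changes of -0.11 and 0.14.

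Hnrnpl, which binds CA repeats, had 331 and 319 TPM with vehicle and 292 and 274 TPM with TGFbeta (log2 change -0.20, adjusted p = 0.403). Hnrnpk, a poly-C binder, overlapped at 450 and 383 TPM with vehicle and 396 and 473 TPM with TGFbeta. Hnrnpu, the scaffold attachment factor, overlapped at 298 and 238 TPM with vehicle and 267 and 290 TPM with TGFbeta. Hnrnpc, which binds runs of U, also overlapped, at 101 and 92.9 TPM with vehicle and 80.0 and 105 TPM with TGFbeta (log2 change -0.08, adjusted p = 0.813). Hnrnpm had 133 and 117 TPM with vehicle and 125 and 124 TPM with TGFbeta. The remaining hnRNP genes (Hnrnpdl, Hnrnpll, Hnrnpr, Hnrnpul1 and Hnrnpul2) had log2 changes between -0.30 and 0.00.

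Among the core factors, the 9 genes of the SF3A and SF3B complexes, parts of the U2 snRNP, had log2 changes from -0.20 to 0.27. None passed the limma test, and none had an unadjusted p under 0.05. Their sum was 567 and 554 TPM with vehicle and 538 and 564 TPM with TGFbeta. Sf3b2 had 129 and 123 TPM with vehicle and 105 and 114 TPM with TGFbeta (log2 change -0.20, adjusted p = 0.408). Sf3b4, an RNA-contacting subunit, had 49.3 and 55.3 TPM with vehicle and 70.1 and 56.7 TPM with TGFbeta (log2 change 0.27, adjusted p = 0.363). The libraries of both separated. Sf3b1, the large subunit that holds the branch site, had 90.7 and 81.3 TPM with vehicle and 71.6 and 81.8 TPM with TGFbeta, which overlapped.

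U2af2, which binds the polypyrimidine tract, was at 235 and 262 TPM with vehicle and 247 and 236 TPM with TGFbeta. U2af1, which reads the AG at the intron's end, was at 121 and 110 TPM with vehicle and 113 and 138 TPM with TGFbeta. Both overlapped between treatments, with log2 changes of -0.04 and 0.11. Ptbp1, the pyrimidine-tract binding repressor of most non-neuronal cells, overlapped at 250 and 261 TPM with vehicle and 262 and 220 TPM with TGFbeta (log2 change -0.09, adjusted p = 0.760). Its relative Ptbp2 was at 58.4 and 45.0 TPM with vehicle and 46.7 and 60.7 TPM with TGFbeta. Ptbp3 was at 28.4 and 20.7 TPM with vehicle and 22.6 and 21.9 TPM with TGFbeta (log2 change -0.12). Median scaling adds the same 0.15 to the log2 change of every gene, so the sign turned in 14 of the 58 members, U2af2, Ptbp1, Ptbp3 and Rbfox2 among them.

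**Figure D3:**
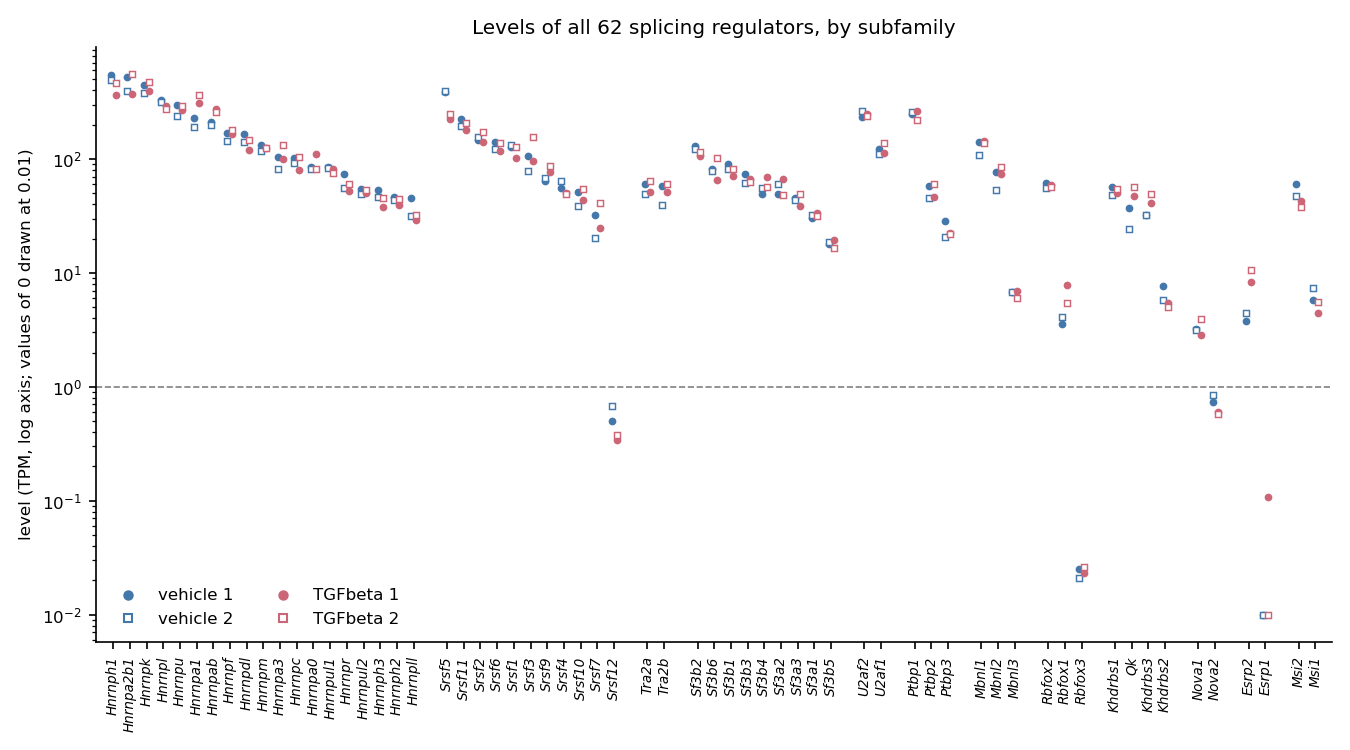
Level in TPM (logarithmic vertical axis, zeros drawn at 0.01) of all 62 genes in each of the 4 libraries, grouped by family and ordered by mean level. Srsf12, Rbfox3, Nova2 and Esrp1 lie under the dashed line at 1 TPM, the minimum mean for testing, while Srsf5, at 227 to 393 TPM, leads the SR genes.

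In the remaining families, some genes separated between treatments but missed the threshold, and others overlapped. Qk encodes Quaking, a STAR-domain protein that binds ACUAA elements and is known for splicing in smooth muscle and other mesenchymal cells. It was at 36.8 and 24.5 TPM with vehicle and 47.7 and 56.8 TPM with TGFbeta. The groups did not overlap; the ratio of means was 1.70 and the log2 change 0.77 with a standard error of 0.22 (limma, adjusted p = 0.0988). Qk was called in the 3 alternatives that also called Hnrnpa1, and its adjusted p over all fits ran from 0.0418 to 0.353. Its log2 change was 1.06 without vehicle 1 and 0.49 without vehicle 2, neither called (adjusted p = 0.139 and 0.353).

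Khdrbs3, the SAM68-like protein SLM2, had 32.0 and 32.1 TPM with vehicle and 41.4 and 49.0 TPM with TGFbeta (log2 change 0.48, standard error 0.15, adjusted p = 0.116). Khdrbs1, SAM68 itself, overlapped at 56.9 and 48.0 TPM with vehicle and 50.3 and 54.7 TPM with TGFbeta (log2 change 0.00). Khdrbs2 had 7.61 and 5.74 TPM with vehicle and 5.45 and 4.98 TPM with TGFbeta (log2 change -0.29, adjusted p = 0.439). The TGFbeta libraries of Qk and Khdrbs3 were thus above those of vehicle, and those of Khdrbs2 below.

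Rbfox proteins bind GCAUG and act in muscle and brain. Rbfox1 was at 3.54 and 4.12 TPM with vehicle and 7.82 and 5.43 TPM with TGFbeta, a ratio of 1.73 without overlap (log2 change 0.64, standard error 0.23, adjusted p = 0.156). Rbfox2, the most widely expressed of the family, overlapped at 61.3 and 56.0 TPM with vehicle and 59.2 and 57.2 TPM with TGFbeta (log2 change -0.01, adjusted p = 0.974). Rbfox3, the neuronal nuclear antigen NeuN, was at 0.0209 to 0.0260 TPM in all libraries and was not tested.

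Muscleblind proteins are known for switches between fetal and adult splicing in heart and muscle. Mbnl1 had 141 and 107 TPM with vehicle and 145 and 139 TPM with TGFbeta (log2 change 0.20, adjusted p = 0.503). Mbnl2 had 76.3 and 53.0 TPM with vehicle and 74.1 and 84.4 TPM with TGFbeta (log2 change 0.31, adjusted p = 0.400). Mbnl3 was at 6.79 and 6.74 TPM with vehicle and 6.91 and 6.01 TPM with TGFbeta. All 3 overlapped between treatments, and vehicle 2 was the lowest library for Mbnl1 and Mbnl2.

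Musashi proteins bind UAG-containing elements and are best known in stem and neural cells. Msi2 was at 60.1 and 47.5 TPM with vehicle and 43.1 and 38.2 TPM with TGFbeta (log2 change -0.39, standard error 0.17, adjusted p = 0.220). Msi1 was at 5.79 and 7.38 TPM with vehicle and 4.43 and 5.54 TPM with TGFbeta (log2 change -0.34, adjusted p = 0.382). In each gene both TGFbeta libraries were below both vehicle libraries, and neither passed the test. Nova1, a neuronal regulator, overlapped at 3.25 and 3.14 TPM with vehicle and 2.85 and 3.96 TPM with TGFbeta. Nova2 lay under the filter at 0.731 and 0.852 TPM with vehicle and 0.606 and 0.572 TPM with TGFbeta.

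HuR is known to bind U-rich and AU-rich stretches, often in 3' UTRs, so the start of each 3' UTR was searched for such letters in GENCODE M21 (GRCm38), after the values had been seen. TTTNTTT occurred in the first 500 bases in 36 of the 46 members with a 3' UTR of at least that length (78.3%), beside 49.9% of 9176 tested protein-coding genes. TTTATTT, a form of it, occurred in 26.1% of members and 18.5% of genes. ATTTA, which can overlap TTTATTT, occurred in 67.4% of members and 48.5% of genes. Letters were searched on the strand that reads as the mRNA. The first match is shown for the 2 called genes and for Qk, Hnrnpa1 and Khdrbs3, with the match in capitals.
Srsf5: ctgggggccTTTTTTTaaaaaacaa
Esrp2: aggcctgtgTTTCTTTttaaaatgt
Qk: ttgtaggaaTTTTTTTcttctccta
Hnrnpa1: aaatgtgtcTTTTTTTttttttttt
Khdrbs3: tcaaagtaaTTTTTTTctatgacca

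Such letters stand in both called genes, Srsf5 and Esrp2, and whether they bear on the levels was not tested. The match begins at base 27 of the 3' UTR in Srsf5, 62 in Khdrbs3, 325 in Esrp2, 332 in Hnrnpa1 and 387 in Qk. Gene-level TPM does not measure binding at these positions.

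Many of these genes have annotated transcripts that gene-level values cannot separate. A nonsense-mediated decay transcript is annotated for 29 of the 58 tested members (50.0%) and for 27.4% of the 13738 tested protein-coding genes. Among the SR genes it is 9 of 10, Srsf5 included, and among the SF3 genes 1 of 9. A retained-intron transcript is annotated for 46 members (79.3%), beside 56.3% of genes. The shares of coding and unproductive forms in each gene's TPM were not measured here.

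Replicates of the same treatment differed in a shared direction for many members, a pattern noticed in the data. Vehicle 1 was above vehicle 2 in 43 of 58 (74.1%), beside 58.7% of all tested genes, and TGFbeta 2 was above TGFbeta 1 in 38 (65.5%), beside 53.5%. Both held in 31 members (53.4%), beside 35.0% of all genes, and the reverse of both in 8 (13.8%), beside 22.7%. By family, both held in 14 of 19 hnRNP genes and the reverse in 0, both in 5 of 10 SR genes and the reverse in 1, and both in each of the Tra2 genes. The SF3 genes gave 4 both and 4 reversed of 9, U2AF and PTB 1 and 1 each, Rbfox 0 and 1, and the STAR genes 2 and 0 of 4. Across the 58 genes the vehicle difference and the TGFbeta difference had a Pearson r of 0.41 and a Spearman rho of 0.32, beside 0.054 and 0.17 across all tested genes. Genes of a library share its preparation and are not independent.

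For the members, the median absolute difference between the vehicle libraries was 0.18 on the log2 scale and between the TGFbeta libraries 0.23, while the median absolute change with TGFbeta was 0.15. For all tested genes these values were 0.19, 0.20 and 0.26. The treatment change averages 2 libraries on each side and the replicate differences do not, so the 2 kinds of value are not on the same footing. The sum over all 62 genes was 6922 and 6195 TPM with vehicle and 6152 and 6930 TPM with TGFbeta, and it overlapped.

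**Figure D4:**
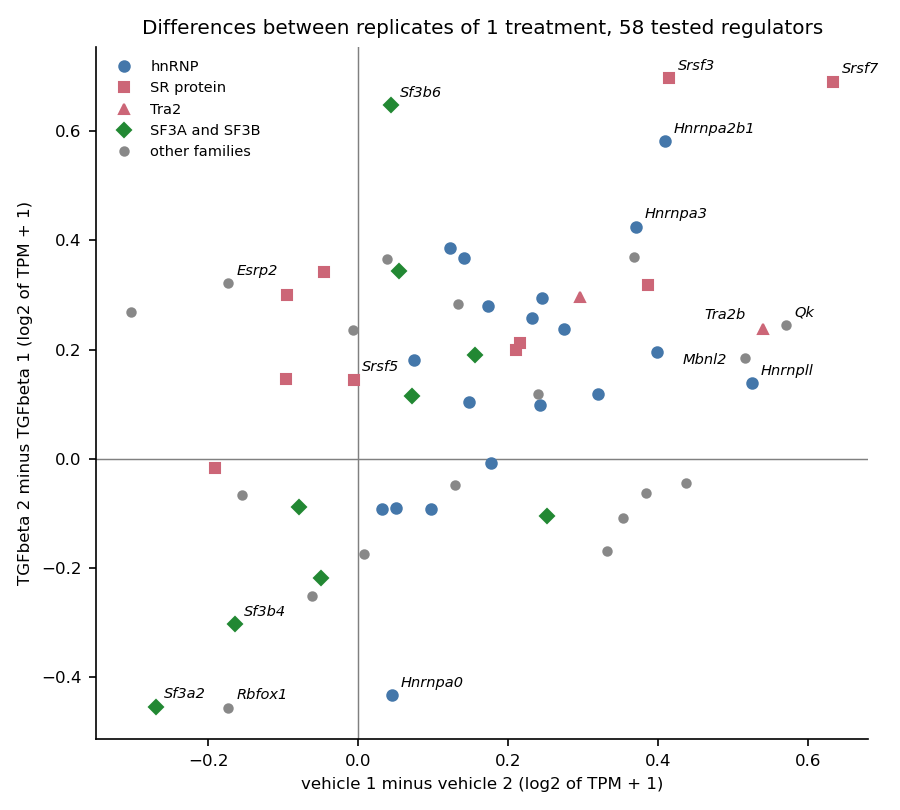
Difference between the vehicle replicates (horizontal axis) and between the TGFbeta replicates (vertical axis), both in log2 of TPM + 1, for the 58 tested genes by family. The upper right region holds 31 genes, among them Srsf3, Srsf7, Hnrnpa2b1 and Qk, and the lower left holds 8, among them Sf3a2 and Rbfox1.

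Around these regulators, 12 lists of RNA-processing genes held 216 gene symbols, of which 207 were tested. None was called higher, 3 were lower and 204 did not pass in limma, so that 1.45% were called beside 5.92% of all tested genes. An unadjusted p under 0.05 was found for 30 (14.5%), beside 24.5% of all genes. The median log2 change over the lists was -0.05, beside -0.13 for all tested genes. By list, the lowest median was -0.26, for the CELF and other tissue-restricted splicing regulators (10 tested, 1 lower). Cirbp, the cold-inducible RNA-binding protein, was lower, with 67.8 and 94.2 TPM with vehicle and 35.4 and 39.6 TPM with TGFbeta (log2 change -1.07, adjusted p = 0.0352). Celf2, a regulator that opposes Muscleblind proteins at some exons, was lower, with 176 and 155 TPM with vehicle and 102 and 92.0 TPM with TGFbeta (log2 change -0.76, adjusted p = 0.0372). Srrm2, a large SR-related scaffold of nuclear speckles, was lower, with 541 and 638 TPM with vehicle and 363 and 345 TPM with TGFbeta (log2 change -0.73, adjusted p = 0.0470).

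Each of these calls was lost when any library was left out, with an adjusted p in limma from 0.0948 to 0.190 for Cirbp, from 0.0926 to 0.184 for Celf2 and from 0.113 to 0.276 for Srrm2. The lowest of these came without TGFbeta 2 for Cirbp and without TGFbeta 1 for the others. All were lost after median scaling as well, at 0.0613 for Cirbp, 0.0613 for Celf2 and 0.117 for Srrm2.

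The list of SR protein kinases and phosphorylation gave no limma call in 11 genes, of which 2 had an unadjusted p under 0.05. It also holds Ppp1r8 and Ppig, which are not kinases, with log2 changes of 0.34 and 0.14. The kinases all had negative log2 changes, from -0.55 (Clk1) to -0.02 (Prpf4b). The median log2 change of the whole list was -0.19. That median was -0.030 without vehicle 1, -0.31 without vehicle 2, -0.074 after quantile normalization and -0.031 after median scaling. Clk1 was at 170 and 156 TPM with vehicle and 93.2 and 131 TPM with TGFbeta (log2 change -0.55, adjusted p = 0.143). Clk2 was at 93.2 and 102 TPM with vehicle and 63.9 and 68.5 TPM with TGFbeta (log2 change -0.55, adjusted p = 0.067). The list of arginine methyltransferases, which modify hnRNP and Sm proteins, also holds the cofactors Wdr77 and Clns1a. This list gave no call in 10 genes (1 at an unadjusted p under 0.05). Its median was 0.20 (0.36 under median scaling, 0.32 under quantile normalization). The cofactor Wdr77 had the largest difference (log2 change 0.46, adjusted p = 0.163).

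The Sm and LSm list, with the ring proteins of the spliceosomal snRNPs and their loading factors, gave no limma call in 22 genes (4 at an unadjusted p under 0.05). Its median was 0.19, which was 0.030 without TGFbeta 2, 0.32 without TGFbeta 1, 0.32 after quantile normalization and 0.35 after median scaling. Gemin4, part of the complex that loads the ring, had 6.79 and 2.23 TPM with vehicle and 14.1 and 11.2 TPM with TGFbeta (log2 change 1.44, adjusted p = 0.099). The minor spliceosome gave no call in 11 genes (3 at an unadjusted p under 0.05), with the largest difference in Snrnp25 (log2 change -0.78, adjusted p = 0.054). The exon junction and nonsense-mediated decay list gave none in 16 (2 unadjusted), with the largest difference in the junction protein Magohb (log2 change 0.79, adjusted p = 0.085).

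The U snRNP protein list gave none in 26 genes (3 unadjusted), with the largest difference in the recycling factor Sart3 (log2 change -0.45, adjusted p = 0.110). The second-step list gave none in 26 (2 unadjusted; Dhx35, a helicase, log2 change -0.57), and the export list none in 15 (1 unadjusted; Nxf1, the export receptor, log2 change -0.50). Elavl1, which encodes HuR, was at 51.1 and 45.7 TPM with vehicle and 51.2 and 54.7 TPM with TGFbeta (log2 change 0.13, adjusted p = 0.621).

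**Figure D5:**
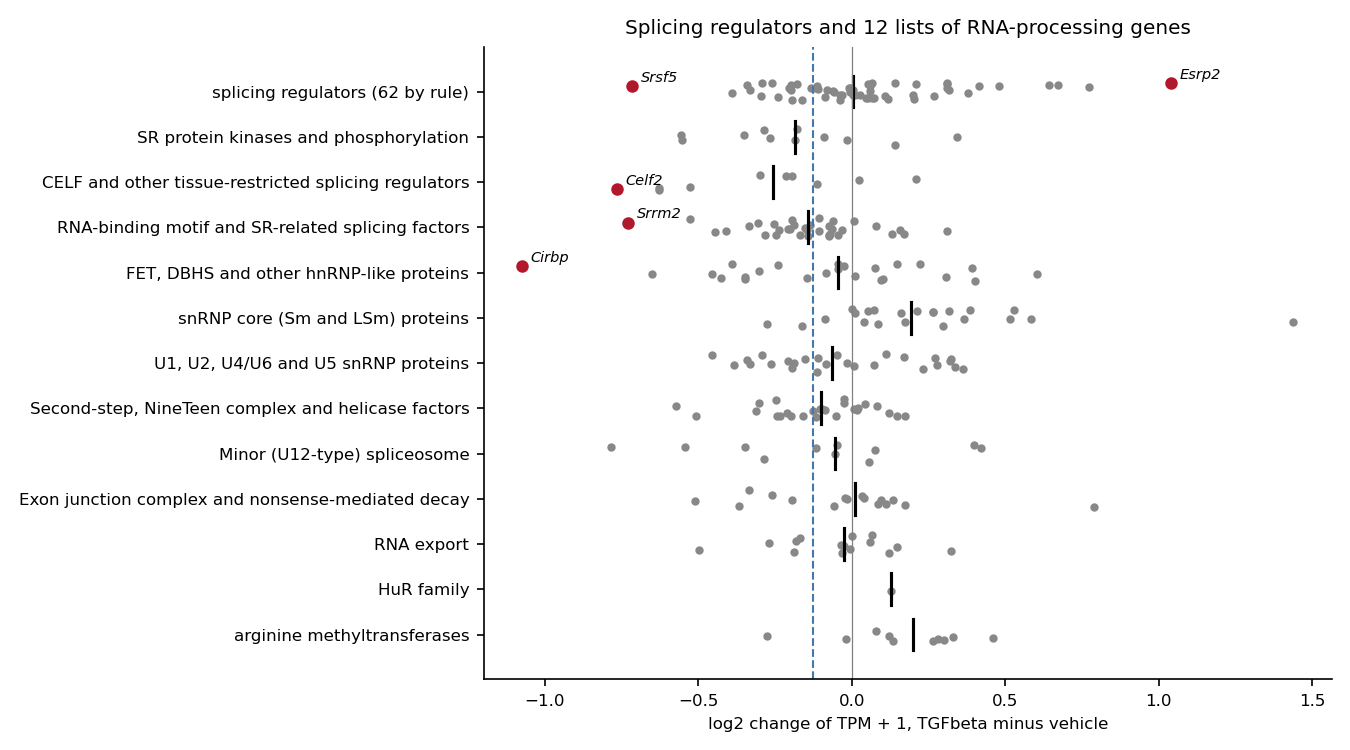
Log2 change (TGFbeta minus vehicle, log2 of TPM + 1) of each tested gene for the splicing regulators and 12 lists of RNA-processing genes; black bars are list medians and the dashed line is the median of all tested genes. The 5 labelled red points passed the test, and the Sm and LSm and methyltransferase medians lie at 0.19 and 0.20, while the kinase median lies at -0.19, all on the values as deposited and all moved by other scalings.

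TPM keeps no read depth. Genes above 0 numbered 21530 and 21671 with vehicle and 20945 and 21089 with TGFbeta, so fewer were detected in both TGFbeta libraries. Fibroblast markers (10 of 10 tested, 2 lower) summed to 19749 to 23698 TPM per library. Of the 8 markers of activated fibroblasts, 7 were called higher with TGFbeta. The other, Tagln, was at 1492 and 1673 TPM with vehicle and 2113 and 2363 TPM with TGFbeta (limma, adjusted p = 0.137). This list summed to 7054 and 6788 TPM with vehicle and 15247 and 15710 TPM with TGFbeta. Cardiomyocyte markers (5 of 11 tested, none called) summed to 74.6 and 116 TPM with vehicle and 55.1 and 58.5 TPM with TGFbeta. Most of this was Tnnt2 (47.0 and 81.4 TPM with vehicle, 35.2 and 34.6 TPM with TGFbeta) and Tnni3 (14.8 and 17.6 TPM, 7.62 and 10.8 TPM). Nppa was at 6.05 to 10.6 TPM and overlapped between treatments, and Myl7 was listed at 0 in 3 libraries. Smooth muscle and pericyte markers (6 of 8 tested, 1 higher and 2 lower) summed to 121 and 123 TPM with vehicle and 81.3 and 84.0 TPM with TGFbeta, although the list's median log2 change was 0.43. Notch3 (74.0 and 83.9 TPM with vehicle, 21.1 and 17.4 TPM with TGFbeta) and Steap4 were lower, and Mcam (15.2 and 13.6 TPM, 29.3 and 29.4 TPM) was higher. Endothelial markers summed to 77.5 and 81.6 TPM with vehicle and 61.0 and 57.4 TPM with TGFbeta, and macrophage and leukocyte markers to 79.2 and 99.5 TPM with vehicle and 65.4 and 72.0 TPM with TGFbeta. Neuron and glia markers (4 of 10 tested, 1 higher) summed to 109 and 117 TPM with vehicle and 233 and 202 TPM with TGFbeta, carried by Tubb3 (76.4 and 83.8 TPM with vehicle, 179 and 159 TPM with TGFbeta) and Map2 (26.8 and 24.0 TPM, 47.7 and 37.8 TPM). The defining neuronal marker Syt1 was at most 0.044 TPM, and S100b was at 3.80 and 4.62 TPM with vehicle and 3.40 and 3.36 TPM with TGFbeta. The part of these cells in the levels of the splicing regulators was not tested.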

How the data were processed

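RNA from 4 libraries (2 vehicle, 2 TGFbeta) was analysed from the authors' deposited TPM tables, which per the file headers give a TPM value per gene symbol. For the aligner, quantifier, build and strand handling: not given in the sources used here. Read numbers cannot be had from TPM, so the depth per library is unknown and intervals for counting error were not computed.

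Values were compared as log2(TPM + 1), a pseudocount of 1, for genes with a mean of at least 1 TPM. The test was limma 3.58.1 (lmFit, eBayes with trend) in R 4.3.3, two-sided and on treatment alone, adjusted by Benjamini-Hochberg across the 15815 genes tested. It was tested on simulated data whose spread depended on the expression level alone. That run does not tell how often changes are found in these libraries. A log2 change on this scale understates the change of low genes. Ratios were taken between mean TPM values. With 2 against 2 libraries an exact permutation test cannot go below 0.333, so none was used.

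The members and gene lists were chosen with earlier results of these data known. Named genes were called members, the most abundant and most changed member of each family, untested members, and the called or most changed genes of each list; other genes were named after their values were seen. Positions, exon overlaps, transcript types and 3' UTRs come from GENCODE M21 (GRCm38) by symbol, and promoters from RefSeq (GRCm38.p6). Protein sequence features were not analysed here. Alternatives changed the pseudocount, filter, scaling, variance model, replicate block and libraries, and testing protein-coding genes only was added after seeing the data.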

Additional observations from a re-analysis of the deposited data

How the results depend on the processing

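Esrp2 alone was called higher and Srsf5 alone lower as reported, and the same 2 genes were called with pseudocounts of 0.1 and 5, quantile normalization and robust eBayes. Members called higher numbered 3 with a minimum mean of 5 TPM, 3 after median scaling and 3 with protein-coding genes only (chosen after seeing the data). All genes called higher then numbered 346 of 11463, 421 of 15815 and 427 of 13738, beside 244 of 15815 as reported. With the replicate block, 0 members and 186 of all 15815 genes were called higher. When every gene above 0 was tested, none of the 23602 genes was called, members included. Members called lower numbered 0 when every gene above 0 was tested, after median scaling, without the trend and with the replicate block. All genes called lower in these fits numbered 0, 401, 437 and 445, beside 692 as reported. Leaving out 1 library gave 0 to 0 in both directions, with 4 to 7 members at an unadjusted p under 0.05. For the pathway lists, the count called higher (0 as reported) was 3 with a minimum of 5 TPM, 1 after quantile normalization, 1 after median scaling, 1 with the replicate block and 3 with protein-coding genes only. All genes called higher in these fits numbered 346, 333, 421, 186 and 427. The list count called lower (3 as reported) was 6 with a minimum of 5 TPM, 7 with protein-coding genes only and 1 with the replicate block. All genes called lower in these fits numbered 1034, 1285 and 445. The list count was 0 after quantile normalization, after median scaling, without the trend or when every gene above 0 was tested. All genes called lower then numbered 401, 401, 437 and 0. The members' median log2 change was 0.159 after median scaling and -0.07 to 0.07 with a library left out. The members with separated libraries were 18 above and 4 below after quantile normalization, and 24 above and 2 below after median scaling. Both splits are given without the shares of all tested genes. The cause of these changes was not tested. Changes near 0 turned sign, all without a call. Median scaling turned 14 members by its shared shift, and for those named by the rule the values are given here: after median scaling they were 0.067 for Ptbp1, 0.033 for Ptbp3, 0.14 for Rbfox2 and 0.12 for U2af2, and after quantile normalization 0.028 for Ptbp3 and 0.11 for Rbfox2. With a library left out, the log2 change ran from -0.12 to 0.13 for Khdrbs1, -0.12 to 0.24 for Nova1, -0.21 to 0.038 for Ptbp1, -0.34 to 0.098 for Ptbp3, -0.074 to 0.055 for Rbfox2, -0.077 to 0.22 for Tra2a, -0.062 to 0.48 for Tra2b, -0.033 to 0.25 for U2af1 and -0.12 to 0.039 for U2af2. The replicate numbers had a correlation of deviations of -0.054 across genes and were not taken as pairs.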
